A study of Mus musculus with 17 samples.

Results

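The interaction of tumor and rFibcd1 is the difference between the responses of the diaphragm to rFibcd1 in mice that carry a tumor and in mice that do not. It was calculated for each gene as (LLC + rFibcd1 minus LLC) minus (Control + rFibcd1 minus Control), over all 17 mice of the series and over the 13305 genes, of 47643 listed, that reached at least 1 TPM (transcripts per 1000000 transcripts) in at least 3 mice. A positive value marks a gene for which rFibcd1 moved the level further up, or less far down, with the tumor than without it. All values of the interaction are differences on the log2(TPM + 1) scale, given ± the standard error (SE) of the model, and a value of 1 is a 2-fold difference between the fold changes for genes well above 1 TPM.

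The mice were 4-month-old C57BL/6J males in 4 groups. Control mice (n = 5) had no tumor and received mock injections, and Control + rFibcd1 mice (n = 5) had no tumor and received rFibcd1. LLC mice (n = 3) carried tumors of Lewis lung carcinoma, a mouse lung cancer line whose cells were injected under the skin of the flanks, and received mock injections, whereas LLC + rFibcd1 mice (n = 4) carried these tumors and received rFibcd1. Mock injections held saline with albumin, and all injections went into the peritoneal cavity, which the diaphragm borders. rFibcd1 is a recombinant protein that resembles the part of Fibcd1, a membrane protein with a fibrinogen domain, that is shed from cells. With only 3 LLC mice, the LLC mean is the least certain of the 4 means that enter each interaction.

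Wasting of muscle in cancer touches several processes that transcripts can report. Ubiquitin ligases and autophagy genes mark proteins and organelles for breakdown, the nuclear genes of the respiratory chain and of fatty acid oxidation set the oxidative capacity on which the diaphragm depends for continuous breathing, and inflammatory and immune cell transcripts report the response to the tumor. Muscle also holds a circadian clock, in which ARNTL (BMAL1) and CLOCK switch on genes such as Per, Cry, Dbp, Tef and Hlf through E-boxes, PER and CRY proteins hold that activity down, and REV-ERB and ROR proteins set Arntl itself through ROR elements.

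The libraries were alike in depth, at 50700000 to 54500000 reads as recovered from the steps of the low values, and 11557 to 13413 genes per mouse reached 1 TPM. Summed TPM of the myofiber markers was 60257 to 65174 in Control, 58842 to 66255 in Control + rFibcd1, 51785 to 55249 in LLC and 53818 to 62634 in LLC + rFibcd1, and none of the 12 markers was at 0 in all mice. Immune cell markers varied widely within groups. The mean level of the B cell markers on the log2(TPM + 1) scale was 4.12 to 4.48 in the LLC mice and 1.23, 3.31, 4.40 and 1.45 in LLC + rFibcd1 replicates 1 to 4, and it ranged from 0.259 to 2.99 in Control and from 0.418 to 3.37 in Control + rFibcd1. Its interaction was -1.30, with a two-sided exact permutation p of 0.319 over 8820 regroupings of the rFibcd1 and mock labels within tumor-bearing and within tumor-free mice. The share of TPM from mitochondrially encoded genes had an interaction of 1.61 percentage points (exact permutation p = 0.359). In bulk tissue, fewer cells of a type and less RNA per cell cannot be told apart.

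No gene passed an adjusted p of 0.05 for the interaction (0% of 13305, limma with Benjamini-Hochberg adjustment), and the smallest adjusted p, shared by 7 genes, was 0.0588. At an adjusted p under 0.1 there were 18 genes, 16 positive and 2 negative. At an unadjusted p under 0.05 there were 1142 genes (8.58%), of which 796 were positive (5.98%) and 346 negative (2.6%). These shares are the background for the counts of members below, and no gene named here is called changed by the interaction. The median interaction over all genes was -0.06 and 37.2% of genes were above 0, so a positive value stands against a slight tilt the other way. Fits that left out 1 mouse each had 0 to 11 genes at an adjusted p under 0.05. The fit without LLC replicate 2 gave the 11, which included Sln, Asb2, Asb14, Gstm7, Ndufa2, Cox6a2 and Tmem171. Without LLC replicate 3, 789 genes had an unadjusted p under 0.05, and without LLC + rFibcd1 replicate 3 there were 1586, of which 838 were negative. The split between directions moved with the scaling, from 796 positive and 346 negative on the deposited values to 1118 and 246 after quantile normalization, which shifted the median interaction of all genes to 0.05, and to 662 and 395 under median-ratio scaling.

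The effects behind the interaction were unequal in number. From LLC to LLC + rFibcd1, 727 genes were higher (5.46%) and 2298 lower (17.3%) at an unadjusted p under 0.05, and 15 genes (0.113%) passed an adjusted p of 0.05. From Control to Control + rFibcd1, 42 genes were higher (0.316%) and 542 lower (4.07%) at the unadjusted threshold, and 0 genes (0%) passed the adjusted one. Both comparisons have their own mock mice, so they share no animal, and across the 13305 genes their effects had a Pearson correlation of 0.364, given as a description because genes are not independent. Among the 1142 genes with an unadjusted interaction p under 0.05, the effect of rFibcd1 was the larger one with the tumor in 995 (87.1%, against 75.02% of all genes tested), and the effects had opposite signs in 977 (85.6%, against 32.6% of all genes tested). The choice of genes by their interaction favours opposite signs, so these shares describe the genes and test nothing.

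The positive and negative sides differed in shape. For the 796 positive genes the median effect of rFibcd1 was 0.18 with the tumor and -0.08 without it, and the median effect of the tumor was -0.16 in mock mice and 0.11 in rFibcd1 mice. For the 346 negative genes the median effect of rFibcd1 was -0.38 with the tumor and 0.03 without it, and that of the tumor was 0.40 in mock and 0.02 in rFibcd1 mice. By these medians, the negative genes stood higher in LLC than in Control, and LLC + rFibcd1 stood near Control + rFibcd1. Over all genes tested, the median effect of the tumor was 0.16 in mock mice and 0.11 in rFibcd1 mice. The choice of genes by their interaction favours the direction of these differences on both sides, so the medians describe the genes and test nothing. An interaction larger than 1 in size was found in 42 of the 1142 genes, 9 positive and 33 negative, and the plot of both effects shows these negative genes as a tail towards low values on the vertical axis.

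**Figure D1:**
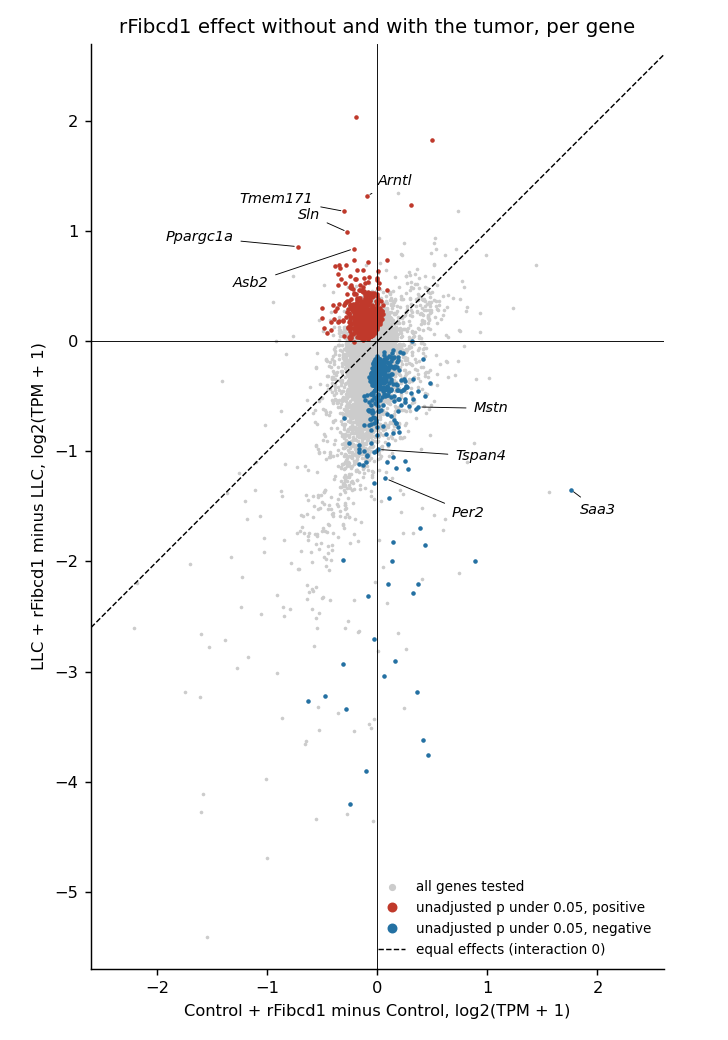
Each point is a gene, placed by its difference from Control to Control + rFibcd1 (horizontal axis) and from LLC to LLC + rFibcd1 (vertical axis), both in log2(TPM + 1). The 796 positive (red) and 346 negative (blue) genes with an unadjusted interaction p under 0.05 lie on either side of the dashed line of equal effects, and the vertical distance is the larger one for 995 of them (87.1%, against 75.02% of all genes tested).

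Among the 12 positive genes with the smallest p, the transmembrane protein gene Tmem171 (chr13:98686235-98694834, GRCm38) came first. Its levels in tumor-free mice were 0.704, 1.15, 1.45, 0.809 and 0.732 TPM in Control and 0.523, 0.372, 0.809, 0.591 and 0.664 TPM in Control + rFibcd1. Tumor-bearing mice had 0.608, 1.69 and 0.705 TPM in LLC and 4.06, 2.65, 3.68 and 3.37 TPM in LLC + rFibcd1. All 4 LLC + rFibcd1 mice lay above all 13 other mice, which holds for 0.812% of genes tested. The interaction of Tmem171 was 1.48 ± 0.23 (unadjusted p = 1.31e-05, adjusted p = 0.0588, limma), from an effect of rFibcd1 of 1.18 ± 0.18 with the tumor and -0.30 ± 0.15 without it. Its TPM stood for about 14.9 to 164 reads per mouse, so it was the least deeply read of the 11 reported here.

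Sarcolipin, encoded by Sln (chr9:53850164-53854560), is a small membrane peptide that binds the calcium pump SERCA and uncouples its ATP use from calcium transport. Sln was at 892, 822, 867, 1068 and 939 TPM in Control and 651, 737, 711, 883 and 827 TPM in Control + rFibcd1. It was at 574, 897 and 567 TPM in LLC and 1508, 1239, 1538 and 1059.8 TPM in LLC + rFibcd1. The LLC + rFibcd1 mice lay above the LLC mice without overlap (as did 5.26% of genes tested), whereas the rFibcd1 mice without a tumor lay mostly below Control. The interaction was 1.26 ± 0.21 (unadjusted p = 2.80e-05, adjusted p = 0.0588, limma). It was made of an effect of 0.99 ± 0.16 with the tumor and -0.27 ± 0.14 without it. LLC replicate 2 had more Sln than the other LLC mice, and without it the adjusted p was 0.00833.

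Asb2 (chr12:103321142-103356001) encodes the substrate-binding part of a cullin ubiquitin ligase in striated muscle. Control mice had 133, 123, 161, 120.0 and 155 TPM and Control + rFibcd1 mice 111, 111, 164, 98.3 and 116.99 TPM. LLC mice had 103, 128 and 103 TPM and LLC + rFibcd1 mice 209, 194, 193 and 202 TPM. The LLC + rFibcd1 mice were tightly grouped above all others, and the interaction was 1.05 ± 0.19 (adjusted p = 0.0691, limma). Leaving out Control + rFibcd1 replicate 3, the one mouse of its group above the Control mice, gave an adjusted p of 0.0107. Another gene of the same family, Asb14 (chr14:26894557-26915258), was at 42.5 to 49.2 TPM in LLC and 52.3 to 60.3 TPM in LLC + rFibcd1, with 50.02 to 54.9 in Control and 45.5 to 51.9 in Control + rFibcd1, for an interaction of 0.44 ± 0.08 (adjusted p = 0.0758).

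Cbfa2t3 (chr8:122625141-122699109), a transcriptional corepressor, had 11.2, 13.2, 12.2, 13.3 and 12.5 TPM in Control and 11.8, 10.8, 10.5, 10.4 and 12.8 TPM in Control + rFibcd1. It had 12.5, 12.03 and 12.3 TPM in LLC and 15.9, 17.7, 18.7 and 16.9 TPM in LLC + rFibcd1. LLC and Control were level, and the LLC + rFibcd1 mice stood above all others. The interaction of Cbfa2t3 was 0.60 ± 0.10 (adjusted p = 0.0588, limma), and it passed an adjusted p of 0.05 under median-ratio scaling, after quantile normalization and when the B cell marker level was a covariate.

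Ybx1 (chr4:119277981-119294604), an abundant RNA-binding protein gene, showed how a small difference could rank high. It was at 274, 277, 277, 281 and 278 TPM in Control, 251, 251, 265, 265 and 270.1 TPM in Control + rFibcd1, 277, 278 and 273 TPM in LLC and 312, 310.1, 319.9 and 298 TPM in LLC + rFibcd1. The mice of a group lay close together, rFibcd1 mice without a tumor lay below Control, and those with a tumor lay above LLC. The interaction was 0.26 ± 0.04 (adjusted p = 0.0588, limma), a 1.195-fold difference between the fold changes of TPM + 1.

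The other positive genes of this rank had the same shape, with every LLC + rFibcd1 mouse above every LLC mouse in all 11 that are reported here and a lower mean in Control + rFibcd1 than in Control in all 11. The ranking by a positive interaction favours both, so these counts describe the genes and test nothing. Among the other genes were Ndufa2 (0.29), a complex I subunit, and Stard7 (0.33), a carrier of phosphatidylcholine to mitochondria. Ppfibp2 (0.62) encodes a liprin and Gstm7 (0.77) a glutathione transferase. The growth factor gene Vegfa (chr17:46016993-46032369) had 144, 147, 166, 165 and 175 TPM in Control, 132, 127, 137, 132 and 148 TPM in Control + rFibcd1, 128, 132 and 130.01 TPM in LLC and 149, 173, 219 and 202 TPM in LLC + rFibcd1, and an interaction of 0.73 ± 0.14 (adjusted p = 0.0834, limma).

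**Figure D2:**
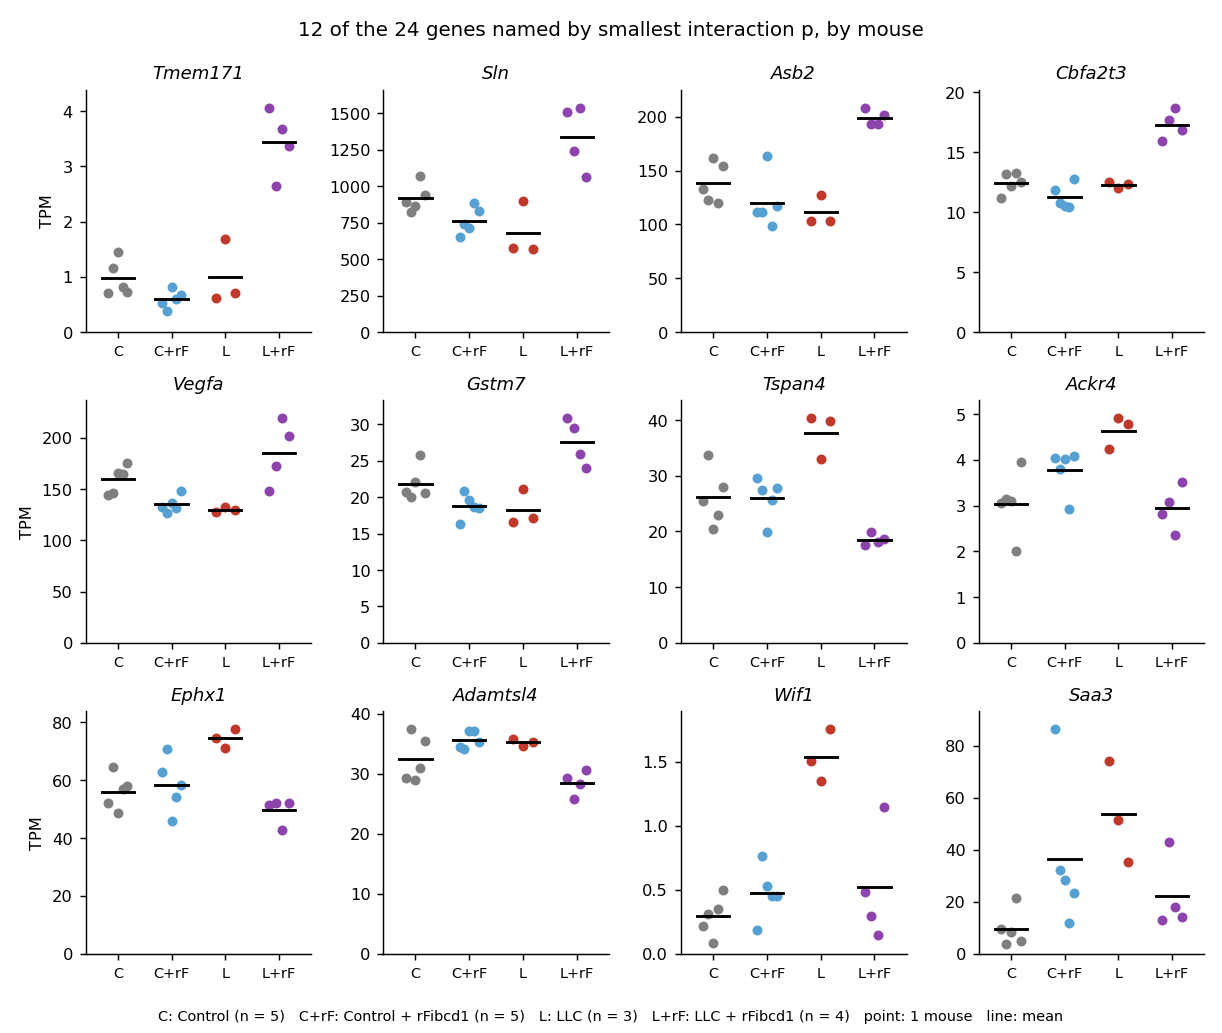
TPM of each mouse (points) and group mean (lines) for 6 positive and 6 negative genes, from left to right Control, Control + rFibcd1, LLC and LLC + rFibcd1, each axis starting at 0. In Tmem171, Asb2 and Cbfa2t3 the LLC + rFibcd1 mice stand above all 13 others and in Tspan4 below them, whereas in Saa3 the groups overlap.

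The 12 negative genes with the smallest p had larger p than the positive ones, with adjusted p from 0.0925 to 0.179. The tetraspanin gene Tspan4 (chr7:141475240-141493427) led them, with 25.5, 33.7, 20.4, 22.9 and 28.0 TPM in Control and 29.6, 27.4, 19.9, 25.7 and 27.8 TPM in Control + rFibcd1. It had 40.3, 33.1 and 39.7 TPM in LLC and 17.6, 19.9, 18.03 and 18.6 TPM in LLC + rFibcd1. The LLC + rFibcd1 mice lay below all 13 other mice, as did 0.18% of genes tested, although by a margin under 0.1 TPM between LLC + rFibcd1 replicate 2 and Control + rFibcd1 replicate 3. The interaction was -0.99 ± 0.19. The effect of rFibcd1 was -0.98 ± 0.15 with the tumor and 0.01 ± 0.12 without it. Of the exon bases of Tspan4, 13.4% overlap those of Chid1 on the other strand, at a mean of 2.85 TPM, and whether the counting used strand was not given in the sources used here. The labels name a stranded library kit and the study's methods another kit and sequencer, so overlaps of genes on opposite strands leave these levels uncertain.

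Ackr4 and Wif1 encode proteins that bind signals without passing them on. Ackr4, a decoy receptor for the chemokines CCL19 and CCL21, had 3.05, 3.14, 3.10, 1.998 and 3.95 TPM in Control and 4.05, 3.80, 4.01, 2.92 and 4.08 TPM in Control + rFibcd1. It had 4.23, 4.91 and 4.78 TPM in LLC and 2.81, 3.07, 2.36 and 3.53 TPM in LLC + rFibcd1, with an interaction of -0.77 ± 0.19 (adjusted p = 0.166, limma). Its level is uncertain, because 8.90% of its exon bases overlap those of Acad11 on the other strand, at a mean of 53.0 TPM. Wif1, a secreted inhibitor of Wnt ligands, was low, at 0.0860 to 0.495 TPM in Control, 0.188 to 0.760 in Control + rFibcd1, 1.503, 1.35 and 1.75 in LLC and 0.482, 0.296, 0.144 and 1.15 in LLC + rFibcd1, with an interaction of -0.97 ± 0.24. In Ackr4 all LLC mice stood above all LLC + rFibcd1 mice, as in 9.3% of genes tested. Wif1 passed the filter on low values only through the LLC mice, so its sign and the separation of its groups are partly fixed by that filter. The reads behind Wif1 were few, about 4.99 to 103 per mouse.

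Among the remaining negative genes were enzymes and matrix proteins. Ephx1, the microsomal epoxide hydrolase, had 74.6, 71.2 and 77.7 TPM in LLC against 51.4, 52.2, 42.8 and 52.0 TPM in LLC + rFibcd1, with 48.5 to 64.5 in Control and 45.9 to 70.9 in Control + rFibcd1 (interaction -0.63 ± 0.16). Mthfd1l, of mitochondrial folate metabolism, had 2.28, 1.91 and 3.06 TPM in LLC and 0.528, 0.702, 1.45 and 0.574 TPM in LLC + rFibcd1 (interaction -0.87 ± 0.21). The values of Adamtsl4, a microfibril-binding protein gene, Arl2bp, Rasd2 and Tmem57 were -0.44, -0.35, -0.53 and -0.55. The acute-phase gene Saa3 had the largest of these 12 interactions, -3.10 ± 0.78, and the widest spread. It was at 9.29, 3.73, 8.26, 21.4 and 4.91 TPM in Control, 86.4, 32.4, 28.2, 11.6 and 23.4 TPM in Control + rFibcd1, 74.0, 51.4 and 35.4 TPM in LLC and 12.9, 43.1, 18.1 and 14.2 TPM in LLC + rFibcd1. On average rFibcd1 mice stood higher than Control without the tumor (1.76 ± 0.50) and lower than LLC with it (-1.35 ± 0.60), and the LLC and LLC + rFibcd1 mice overlapped.

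Genes of the circadian clock were frequent where LLC + rFibcd1 mice lay below the rest. In all, 24 genes of 13305 had all 4 LLC + rFibcd1 mice below the 13 other mice, and 7 of these 24 were among the 22 members tested of the clock core and clock output lists, namely Per3, Dbp, Tef, Hlf, Ciart, Bhlhe41 and Tspan4. Tspan4 and Leo1 are in the output list without being clock components. Of those 22 members, 4 had a positive and 7 a negative interaction at an unadjusted p under 0.05, and without Tspan4 and Leo1 these were 3 and 6 of 20. The lists were drawn up with earlier results of these data known, so the counts describe them and are not independent evidence.

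The letters of 3 promoters show examples of the elements through which clock genes are known to be tied together. They are RefSeq sequences on GRCm38.p6, from 250 bases before to 50 bases after an annotated start, in lower case with the element in capitals. For Arntl (chr7:113207261-113207560, plus strand) the capitals mark a ROR element, for Per3 (chr4:151044616-151044915, minus strand) 2 D-boxes, and for Tef (chr15:81811164-81811463, plus strand) an E-box.
Arntl: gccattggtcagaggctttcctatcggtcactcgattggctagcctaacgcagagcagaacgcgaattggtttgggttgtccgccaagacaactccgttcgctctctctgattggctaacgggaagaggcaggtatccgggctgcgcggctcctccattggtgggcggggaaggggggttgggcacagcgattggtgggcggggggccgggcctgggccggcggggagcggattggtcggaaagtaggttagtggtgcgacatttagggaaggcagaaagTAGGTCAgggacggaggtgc
Per3: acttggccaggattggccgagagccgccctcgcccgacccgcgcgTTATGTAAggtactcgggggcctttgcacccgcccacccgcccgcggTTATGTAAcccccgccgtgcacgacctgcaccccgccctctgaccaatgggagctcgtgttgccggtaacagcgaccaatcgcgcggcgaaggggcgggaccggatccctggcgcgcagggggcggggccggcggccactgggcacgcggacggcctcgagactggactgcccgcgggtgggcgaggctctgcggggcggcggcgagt
Tef: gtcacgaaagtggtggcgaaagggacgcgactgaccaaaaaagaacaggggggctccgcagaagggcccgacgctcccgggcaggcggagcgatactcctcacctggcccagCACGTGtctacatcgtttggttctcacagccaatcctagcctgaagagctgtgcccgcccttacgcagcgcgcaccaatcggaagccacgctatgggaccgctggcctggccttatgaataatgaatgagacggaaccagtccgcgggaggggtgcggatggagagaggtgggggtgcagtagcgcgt
The ROR element of Arntl began 30 bases after the start, and the D-boxes of Per3 began 205 and 158 bases before it. Both strands of every promoter in the table were searched for CACGTG (E-box), TTATGTAA or TTACGTAA (D-box) and TAGGTCA (ROR element). Leaving out Tspan4 and Leo1, an E-box was in 7 of 23 promoters from 17 genes of the clock lists, against 7.15% of all 32851 promoters, a D-box in 1 against 1.06%, and a ROR element in 2 against 2.61%. The genes with an E-box, without Tspan4, were Bhlhe41, Ciart, Cry1, Per1, Pfkfb3 and Tef. Of these, only Tef had an unadjusted interaction p under 0.05 (limma). A match is a string of letters in this window, not evidence of binding.

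The positive arm of the clock was high in LLC + rFibcd1. Arntl (chr7:113207465-113314126) had 2.73, 2.06, 5.72, 3.40 and 1.77 TPM in Control and 3.38, 2.45, 3.10, 2.28 and 2.31 TPM in Control + rFibcd1. It had 2.88, 4.72 and 3.998 TPM in LLC and 11.1, 16.7, 8.27 and 9.42 TPM in LLC + rFibcd1. All LLC + rFibcd1 mice lay above all others, by an interaction of 1.41 ± 0.35 (unadjusted p = 0.00106, adjusted p = 0.166, limma; 95% interval 0.67 to 2.16). Its partner Clock (chr5:76209868-76304792) was at 2.65 to 3.71 TPM in Control, 1.98 to 3.31 in Control + rFibcd1, 3.19, 3.04 and 3.23 in LLC and 4.56, 6.16, 3.74 and 3.62 in LLC + rFibcd1, with an interaction of 0.55 ± 0.20 (unadjusted p = 0.0129). Its LLC + rFibcd1 mice lay above the LLC mice, and 1 Control mouse reached their lower end.

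The repressor genes Per3, Per2 and Cry2 lay on the other side. Per3 (chr4:151003652-151044665) had 13.9, 14.8, 8.42, 12.8 and 12.998 TPM in Control and 11.3, 12.8, 10.1, 13.6 and 14.1 TPM in Control + rFibcd1. It had 14.0, 9.66 and 11.5 TPM in LLC and 6.04, 3.34, 6.81 and 5.63 TPM in LLC + rFibcd1, with an interaction of -0.99 ± 0.26 (unadjusted p = 0.00181, adjusted p = 0.18, limma). Control replicate 3 was low in Per3 beside its group. Per2 (chr1:91415982-91459324) varied more, with 15.9, 20.2, 6.48, 9.33 and 23.0 TPM in Control, 12.3, 13.9, 18.4, 12.8 and 15.2 TPM in Control + rFibcd1, 12.1, 9.19 and 16.2 TPM in LLC and 3.48, 2.49, 7.03 and 6.58 TPM in LLC + rFibcd1 (interaction -1.32 ± 0.48, unadjusted p = 0.0153). Control replicate 3 alone among the other mice reached down into the LLC + rFibcd1 range. Cry2 was at 7.99 to 11.4 TPM in LLC + rFibcd1 and 13.1 to 15.4 in LLC (-0.38 ± 0.15, unadjusted p = 0.0248). The values of Per1 (-0.69 ± 0.43), Cry1 (-0.17 ± 0.23), Nr1d1 (0.62 ± 0.37) and Nr1d2 (-0.10 ± 0.15), which encode 2 more repressors and both REV-ERB proteins, did not pass an unadjusted p of 0.05.

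Among the outputs, the 3 PAR bZIP factors, which bind D-boxes, shared a pattern. Dbp (chr7:45705088-45710203) had 171, 185, 128, 166 and 149 TPM in Control, 129, 126, 106, 188 and 169 TPM in Control + rFibcd1, 154, 123 and 146 TPM in LLC and 73.4, 47.0, 70.1 and 70.3 TPM in LLC + rFibcd1. Tef (chr15:81802421-81826863) had 75.5, 84.2, 64.7, 75.8 and 75.04 TPM, 71.7, 78.3, 67.0, 83.8 and 78.4 TPM, 75.6, 58.5 and 67.5 TPM and 45.9, 32.2, 47.5 and 47.3 TPM in the same order of groups. Hlf (chr11:90336536-90390895) had 7.90, 10.4, 5.93, 8.16 and 8.41 TPM, 7.78, 8.35, 5.23, 6.86 and 8.89 TPM, 7.98, 6.81 and 7.76 TPM and 3.48, 3.01, 3.04 and 3.47 TPM in that order. In each of them the LLC + rFibcd1 mice lay below all 13 others and the other 3 groups overlapped. The interaction of Dbp was -0.95 ± 0.25 (unadjusted p = 0.00176, limma), from effects of rFibcd1 of -1.12 ± 0.19 with and -0.17 ± 0.16 without the tumor. That of Tef was -0.65 ± 0.17 (unadjusted p = 0.00146), from -0.63 ± 0.13 and 0.02 ± 0.11, and that of Hlf -0.88 ± 0.20 (unadjusted p = 0.000546), from -1.001 ± 0.16 and -0.12 ± 0.13. Dbp shares 539 of its 2993 exon bases with Sphk2 on the other strand, at a mean of 8.27 TPM against 129.5 TPM for Dbp.

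Bhlhe40 and Bhlhe41 encode related E-box repressors that differed in sign. Bhlhe40 had an interaction of 0.71 ± 0.23 (unadjusted p = 0.00825), with lower values in Control + rFibcd1 (41.7 to 49.3 TPM) than in Control (54.0 to 76.3 TPM). In tumor-bearing mice it was at 55.3, 59.1 and 59.7 TPM in LLC and 63.0, 58.0, 51.4 and 108 TPM in LLC + rFibcd1, where replicate 4 was high. Bhlhe41 had -0.39 ± 0.22 (unadjusted p = 0.093) and Ciart, another repressor, -0.88 ± 0.44 (unadjusted p = 0.0648). Leo1, a subunit of the PAF1 complex of transcription, had 0.54 ± 0.16. Arntl, Clock, Per2, Per3, Cry2, Dbp, Tef and Hlf kept the sign of their interaction in each of 17 fits without 1 mouse and under each other alternative that tested them. The hour of dissection was not given in the sources used here.

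**Figure D3:**
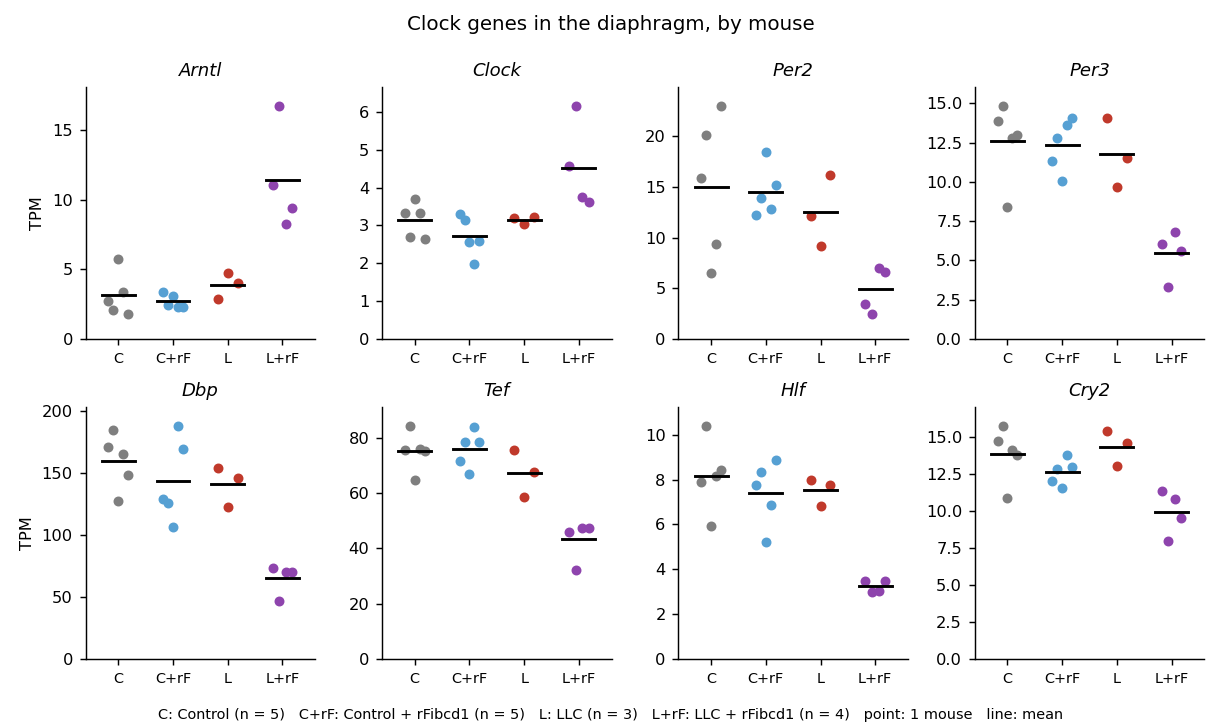
TPM of each mouse (points) and group mean (lines) for 8 clock genes in Control, Control + rFibcd1, LLC and LLC + rFibcd1, each axis starting at 0. The LLC + rFibcd1 mice stand above all others in Arntl and below all others in Per3, Dbp, Tef and Hlf.

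The nuclear genes of the respiratory chain formed the most uniform list. Of 32 members tested, 28 had a positive interaction at an unadjusted p under 0.05 and 0 a negative one, all 32 values were above 0, and the list's median was 0.21 against -0.06 over all genes. In 27 of 32 the LLC + rFibcd1 mice lay above the LLC mice without overlap. By complex, 9 of 11 members of complex I passed the unadjusted threshold, 4 of 4 of complex II, 3 of 5 of complex III with cytochrome c, 8 of 8 of complex IV and 4 of 4 of complex V (ATP synthase). The myofiber markers leaned the same way, with 11 of 12 values above 0, a median of 0.16 and 2 of 12 positive at an unadjusted p under 0.05, and their median difference was -0.12 from Control to LLC and 0.11 from LLC to LLC + rFibcd1. In the respiratory chain the exceptions were Ndufa1 (0.10 ± 0.06), Ndufc1 (0.13 ± 0.07), Uqcrc2 (0.13 ± 0.06) and Cycs (0.07 ± 0.07). The highest interaction in the list was 0.45, that of Cox6a2.

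The levels show where they came from. Cox6a2, the muscle form of a cytochrome oxidase subunit, was at 2623, 2552, 2724, 2929.6 and 2817 TPM in Control and 2395, 2418, 2768, 2740.1 and 2630.0 TPM in Control + rFibcd1. It was at 2132, 2602 and 2130.1 TPM in LLC and 3235, 2836, 2825 and 2900.2 TPM in LLC + rFibcd1, and its interaction was 0.45 ± 0.10 (unadjusted p = 0.000525, adjusted p = 0.137, limma). LLC mice differed from Control by -0.26, with LLC replicate 2 at the Control level, and LLC + rFibcd1 mice differed from Control + rFibcd1 by 0.19.

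Sdhb, the iron-sulfur subunit of succinate dehydrogenase, had 615, 638, 641, 664 and 667 TPM in Control, 581, 577, 623, 632 and 629 TPM in Control + rFibcd1, 531, 562 and 475 TPM in LLC and 620.4, 603, 586 and 600.1 TPM in LLC + rFibcd1. Ndufv1, which carries the flavin of complex I, had 415, 421, 437, 443 and 443 TPM, 384, 409.7, 412, 418 and 418 TPM, 389, 391 and 328 TPM and 448, 416, 431 and 410.4 TPM in the same order. In both, the LLC group had the lowest mean, with LLC replicate 3 the lowest mouse of all, and the LLC + rFibcd1 mice lay within the range of the tumor-free mice or close to it. Their interactions were 0.29 ± 0.07 and 0.29 ± 0.07 (unadjusted p = 0.000652 and 0.00115, limma).

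Values of the same sign came from Uqcrfs1 of complex III (0.23 ± 0.08), Cyc1 (0.21 ± 0.07), Cox8b (0.34 ± 0.09), Cox6c (0.22 ± 0.05), Ndufa4 (0.21 ± 0.05) and Atp5c1 and Atp5o of ATP synthase (0.23 ± 0.06 and 0.21 ± 0.06). Over the list, the median difference from Control to LLC was -0.23, from Control + rFibcd1 to LLC + rFibcd1 -0.03, from LLC to LLC + rFibcd1 0.16 and from Control to Control + rFibcd1 -0.04. The count of 28 was 20 without LLC replicate 3 and 24 with B cell markers as a covariate. Under median-ratio scaling it was 8, although the list's median was then 0.27.

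**Figure D4:**
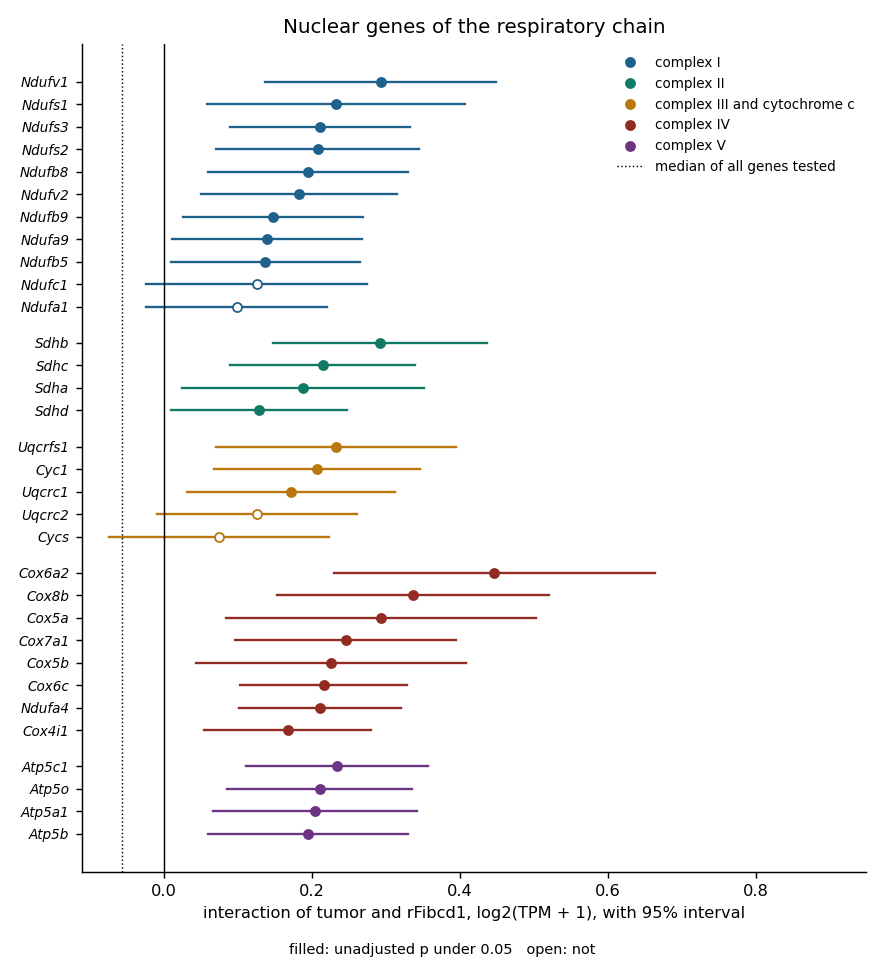
Interaction of tumor and rFibcd1 (log2(TPM + 1), horizontal axis) with its 95% interval for the 32 nuclear genes of the respiratory chain, grouped and coloured by complex, with filled points at an unadjusted p under 0.05. All 32 points lie to the right of 0 and of the dotted line at -0.06, the median of all genes tested.

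Among fuel genes, those for PGC-1 and fatty acid oxidation leaned the same way. Of 29 members tested of the list for PGC-1 and fatty acid oxidation, 9 were positive and 0 negative at an unadjusted p under 0.05, with a median of 0.26. The count was 6 without LLC replicate 3 and 14 without Control replicate 2, and the median ran from 0.16 to 0.31 in fits without 1 mouse. Ppargc1a, the gene of PGC-1alpha, a coactivator that drives mitochondrial genes, had 14.8, 39.2, 33.6, 16.1 and 62.1 TPM in Control and 16.4, 20.6, 24.3, 10.1 and 17.4 TPM in Control + rFibcd1. It had 10.4, 11.9 and 10.1 TPM in LLC and 18.4, 17.5, 15.4 and 34.5 TPM in LLC + rFibcd1. The Control mice spanned a wide range, and the interaction was 1.58 ± 0.54 (unadjusted p = 0.0106, adjusted p = 0.331, limma). The trifunctional protein genes Hadha and Hadhb had 0.31 ± 0.09 and 0.29 ± 0.09, and the fatty acid carrier gene Fabp3 0.46 ± 0.14.

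Lactate dehydrogenase split by subunit. Ldhb, the form of oxidative muscle, had an interaction of 0.47 ± 0.12 (unadjusted p = 0.0014), and Ldha, the form of fast muscle, -0.24 ± 0.11 (unadjusted p = 0.0478). Ldhb was at 1125 to 1424 TPM in LLC and 1492 to 1724 TPM in LLC + rFibcd1, and Ldha at 436 to 517 and 391.8 to 467. Of 23 glucose metabolism genes tested, 1 was positive and 2 negative, the negative ones being Ldha and the muscle enolase Eno3 (-0.34 ± 0.13).

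Fast fiber genes had 3 negative members, Mybpc2, Myl1 and Ldha, and 1 positive of 17 tested. Mybpc2, fast myosin-binding protein C, had 458, 401, 516, 299 and 480.1 TPM in Control, 582, 447, 543, 562 and 444 TPM in Control + rFibcd1, 425, 378 and 449 TPM in LLC and 302, 297, 271 and 388 TPM in LLC + rFibcd1, with an interaction of -0.69 ± 0.22 (unadjusted p = 0.00609). Most LLC + rFibcd1 mice were below the LLC mice, and 1 of them, replicate 4, was among them. Myl1, a fast myosin light chain, had -0.24 ± 0.10, whereas Tnnc2, fast troponin C, had 0.18 ± 0.07. Tnnc2 shares 592 of its 800 exon bases with Ube2c on the other strand, which was at a mean of 3.03 TPM against 9745 TPM. The count of negative members ran from 1 to 6 when 1 mouse was left out. Among 13 slow fiber genes tested, 1 was positive, the calsequestrin Casq2.

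Genes that handle calcium in the fiber had 7 positive and 0 negative members of 26 tested, with a median of 0.09. Beside Sln, the SERCA inhibitor gene Mrln had an interaction of 0.52 ± 0.22. Its values lay in another order, 19.0, 20.1, 19.8, 19.5 and 19.9 TPM in Control, 14.1, 9.81, 16.3, 15.9 and 15.3 in Control + rFibcd1, 11.3, 15.7 and 14.6 in LLC and 16.99, 18.03, 10.6 and 13.5 in LLC + rFibcd1, so that the Control mice were apart above the rFibcd1 and tumor groups. The pump genes themselves did not pass, Atp2a1 at 0.07 ± 0.08 (unadjusted p = 0.383) and Atp2a2 at 0.41 ± 0.21 (unadjusted p = 0.0717).

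Casq2, which stores calcium in the reticulum, had 168, 166, 199, 214 and 171 TPM in Control, 151, 166, 177, 187 and 207 TPM in Control + rFibcd1, 142, 155 and 124 TPM in LLC and 182, 188, 189.7 and 198 TPM in LLC + rFibcd1 (interaction 0.49 ± 0.14, unadjusted p = 0.00355). The LLC group had the lowest mean, and its mice lay below all LLC + rFibcd1 mice. The release channel and its voltage sensor, Ryr1 and Cacna1s, had 0.24 ± 0.10 and 0.27 ± 0.09, Jsrp1 of the triad 0.26 ± 0.09, and the calcium sensor gene Stim1 0.19 ± 0.07. Under median-ratio scaling the count of positive members was 3, although the list's median was then 0.15.

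Ubiquitin ligase genes of muscle had 8 positive and 0 negative members of 25 tested, although the list's median was 0.02. Trim63 (MuRF1), a ligase that marks thick-filament proteins, had 101, 115, 80.2, 81.1 and 119 TPM in Control and 86.9, 70.5, 134, 65.1 and 78.3 TPM in Control + rFibcd1. It had 75.2, 104 and 96.7 TPM in LLC and 193, 116, 124 and 198 TPM in LLC + rFibcd1, for an interaction of 0.96 ± 0.32 (unadjusted p = 0.00935, adjusted p = 0.319, limma). Fbxo32 (atrogin-1) had 92.5, 70.5, 73.7, 87.2 and 93.1 TPM in Control, 79.6, 78.7, 91.5, 73.1 and 61.5 TPM in Control + rFibcd1, 73.2, 98.5 and 71.8 TPM in LLC and 174, 96.3, 109.6 and 113 TPM in LLC + rFibcd1 (interaction 0.69 ± 0.24, unadjusted p = 0.0106). In both genes the LLC mice lay within or near the Control range, with differences from Control of -0.10 and -0.04. The LLC + rFibcd1 mice lay above the LLC mice in Trim63, with replicates 1 and 4 highest, and overlapped with them in Fbxo32, where replicate 1 was high.

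The remaining positive members were Asb2, given above, Kbtbd13 (0.62 ± 0.18), Fbxo30 (0.47 ± 0.16), Fbxo31 (0.40 ± 0.12), Klhl40 (0.32 ± 0.15) and Trim55 (0.29 ± 0.09). Autophagy genes had 4 positive and 0 negative members of 21 tested. Pink1, the kinase that marks damaged mitochondria, had 510.2, 569 and 488 TPM in LLC and 714, 649.9, 629 and 643 TPM in LLC + rFibcd1, with 623 to 693 in Control and 542 to 661 in Control + rFibcd1. Its LLC + rFibcd1 mice lay above the LLC mice without overlap and its interaction was 0.43 ± 0.09 (unadjusted p = 0.000214, adjusted p = 0.109, limma). The autophagosome gene Map1lc3b had 0.24 ± 0.07, the initiating kinase Ulk1 0.29 ± 0.11 and Tfeb, a regulator of lysosomal genes, 0.24 ± 0.07. The cathepsin list also holds Napsa, Lgmn, Cst3 and Cstb. It had 0 positive and 0 negative members of 17 tested, with a median of -0.27 that was -0.04 with B cell markers in the model.

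Of 26 glucocorticoid and FoxO targets tested, 3 were negative and 1 positive. Pik3r1, the regulatory subunit of PI3 kinase, had 15.5, 16.4, 15.8, 19.3 and 17.5 TPM in Control, 19.7, 22.6, 14.6, 15.8 and 17.996 TPM in Control + rFibcd1, 19.0, 15.1 and 18.3 TPM in LLC and 12.4, 14.1, 11.8 and 10.4 TPM in LLC + rFibcd1, below all 13 other mice (interaction -0.57 ± 0.17, unadjusted p = 0.00465). Mstn (myostatin), which limits muscle growth, had 29.0, 21.5, 19.6, 20.8 and 18.1 TPM in Control and 21.1, 21.9, 28.2, 37.3 and 36.4 TPM in Control + rFibcd1. It had 15.1, 12.1 and 14.2 TPM in LLC and 8.30, 6.15, 8.26 and 13.6 TPM in LLC + rFibcd1. Both tumor groups lay below both tumor-free groups in Mstn and overlapped each other, and rFibcd1 mice were on average higher than mock without the tumor (0.37 ± 0.20) and lower with it (-0.60 ± 0.24), for an interaction of -0.97 ± 0.31 (unadjusted p = 0.00639, limma). Glul, glutamine synthetase, had -0.87 ± 0.30, with 1 high mouse in LLC (479.7, 252 and 324 TPM against 216, 243, 237 and 208 TPM in LLC + rFibcd1). Foxo4 had 0.19 ± 0.08. Output genes of the ERK kinase pathway had 0 positive and 0 negative members of 25 tested, with a median of 0.01.

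Endothelial genes had the second highest share of positive members, 6 of 13, with all 13 values above 0 and a median of 0.21. Cldn5, a tight-junction protein of endothelium, was at 33.1, 15.2, 25.1, 22.6 and 20.8 TPM in Control and 22.7, 16.4, 16.9, 14.5 and 23.6 TPM in Control + rFibcd1. It was at 27.6, 21.1 and 17.7 TPM in LLC and 37.4, 34.3, 33.1 and 38.5 TPM in LLC + rFibcd1, an interaction of 0.97 ± 0.28 (unadjusted p = 0.00341, limma). Tek, the angiopoietin receptor, had 13.003, 12.7, 14.1, 14.2 and 13.04 TPM, 13.3, 13.3, 12.4, 12.4 and 13.2 TPM, 15.2, 14.6 and 14.5 TPM and 19.0, 19.99, 19.0 and 15.5 TPM in the order Control, Control + rFibcd1, LLC and LLC + rFibcd1 (0.34 ± 0.09). In both the LLC + rFibcd1 mice lay above all others. For Cldn5 the margin between Control replicate 1 and LLC + rFibcd1 replicate 3 was lost in rounding, both being 33.1 TPM. Summed TPM of the list was 369 to 404 in Control, 356 to 406 in Control + rFibcd1, 402 to 456 in LLC and 477 to 517 in LLC + rFibcd1. The count of positive members was 3 without LLC + rFibcd1 replicate 2, without LLC + rFibcd1 replicate 3 or without LLC replicate 2, and 2 with sample weights.

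The type IV collagen of the basement membrane, on which endothelium rests, had positive values too. Its chain genes Col4a1 and Col4a2, which are read from a shared promoter region, had 0.49 ± 0.14 and 0.54 ± 0.13, with 53.6, 53.1 and 53.6 TPM in LLC and 63.1, 69.8, 73.1 and 68.5 TPM in LLC + rFibcd1 for Col4a2, and in both genes the LLC + rFibcd1 mice lay above all others. Timp1 (-0.66 ± 0.25) and Postn (-0.63 ± 0.21), matrix genes of injury and fibrosis, had negative values, and 20 of the 24 collagen and matrix genes tested passed in neither direction. Of 23 fibrinogen-domain and integrin genes tested, 3 were positive and 1 negative, with a median of 0.05. The laminin receptor gene Itga7 had 0.31 ± 0.08 and Itgb5 0.29 ± 0.06. Angpt1, the ligand of TEK, had 0.50 ± 0.22, and Tnc, tenascin C, -0.94 ± 0.35, with 1.51, 1.80 and 5.56 TPM in LLC and -0.51 without LLC replicate 3, the highest of these. Tnc passed the filter only through the LLC mice. Fibcd1 itself was at 0 to 0.0352 TPM and was not tested.

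Of the myogenic factors, Myod1, which commits cells to muscle, had the smallest p. It was at 15.6, 12.4, 11.3, 12.7 and 12.9 TPM in Control, 9.60, 11.4, 13.7, 11.3 and 11.6 TPM in Control + rFibcd1, 10.9, 8.34 and 9.83 TPM in LLC and 12.5, 15.9, 11.7 and 17.5 TPM in LLC + rFibcd1, with no overlap between the tumor groups (interaction 0.67 ± 0.18, unadjusted p = 0.002, limma). Of 16 satellite and myogenic genes tested, 4 were positive and 1 negative, and of 18 neuromuscular genes 3 were positive and 0 negative, with Myod1 counted in both lists. The others included Pax3 (0.46 ± 0.17), Colq (0.63 ± 0.18), which anchors acetylcholinesterase at the synapse, and Rapsn (0.28 ± 0.12), which clusters acetylcholine receptors.

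Immune markers had large negative values with wide errors. The B cell list had a median interaction of -1.28, with 0 of 12 members at an unadjusted p under 0.05, the T cell list -0.93 (0 of 13) and the macrophage list -0.52 (0 of 14). The plasma cell list had a median of -0.79, and 1 of its 10 members was negative at that threshold. In fits without 1 mouse the medians ran from -1.91 to -0.78 for B cells and from -1.49 to -0.64 for T cells. They ran from -0.67 to -0.23 for macrophages and from -1.03 to -0.54 for plasma cells. Cd79a, a subunit of the B cell receptor, shows the spread behind them. It was at 97.6, 90.6 and 110.4 TPM in LLC and 7.47, 52.6, 110.4 and 9.39 TPM in LLC + rFibcd1, with 28.7, 36.8, 7.51, 10.4 and 0.199 TPM in Control and 55.4, 5.55, 1.21, 2.44 and 10.2 TPM in Control + rFibcd1. LLC + rFibcd1 replicate 3 was as high as the LLC mice and replicates 1 and 4 were in the range of tumor-free mice, and the interaction of -1.49 ± 1.59 had a 95% interval of -4.88 to 1.91. The values of Cd79b (-1.31 ± 1.35) and Ms4a1 (-1.28 ± 1.14) had similar errors. Of the dividing cell markers, 1 of 11 was negative. Without LLC + rFibcd1 replicate 3, 6 of 12 B cell, 11 of 13 T cell and 10 of 11 dividing cell markers were negative at an unadjusted p under 0.05, against 6.32% of all genes in that fit. The 14 dividing cell markers summed to 5.73 to 14.7 TPM in Control and 20.7 to 30.2 TPM in LLC. Members near 1 TPM may have passed the filter mainly through LLC mice, which favours a negative sign. Of these markers, Ube2c shares 592 exon bases with Tnnc2 on the other strand, at a mean of 9745 TPM against 3.03 TPM for Ube2c. Summed TPM of the 12 B cell markers was 3.08 to 126 in Control, 4.65 to 177 in Control + rFibcd1, 295 to 378 in LLC and 22.8 to 365 in LLC + rFibcd1, with 0 markers at 0 in all mice. Adding the B cell marker level to the model left 744 positive and 222 negative genes at an unadjusted p under 0.05. In that model the list medians of interferon-stimulated genes and ribosomal proteins were -0.02 and -0.03, and those of T cells and macrophages -0.17 and -0.11. The clock output list had a median of -0.34 against -0.48 without the covariate, and the respiratory chain 0.17 against 0.21. The part of the other cell type markers was not tested.

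Few inflammatory genes besides Saa3 passed the unadjusted threshold. Of 24 interferon-stimulated genes tested, 0 were positive and 2 negative, Ifit3 (-0.60 ± 0.25) and Irf7 (-0.48 ± 0.20), with a median of -0.24. Of 24 genes of IL-6, TNF and NF-kB signaling, 1 was negative, Saa3. Of 27 ribosomal protein genes all values were below 0, with a median of -0.16, and 1 passed the unadjusted threshold. A list of genes from the study's text, which does not hold all that it names, had 15 members tested, of which 3 were positive, Trim63, Fbxo32 and Ppargc1a with the values above, and 12 had values below 0 that did not pass. Its median was -0.47, and -0.02 with B cell markers in the model. The study chose these genes on the same mice, so they are not independent evidence of a direction. Leaving out 1 mouse moved many of the small counts above by over 1.5 times, among them those of the fast fiber, glucose metabolism, FoxO, interferon and matrix lists.

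**Figure D5:**
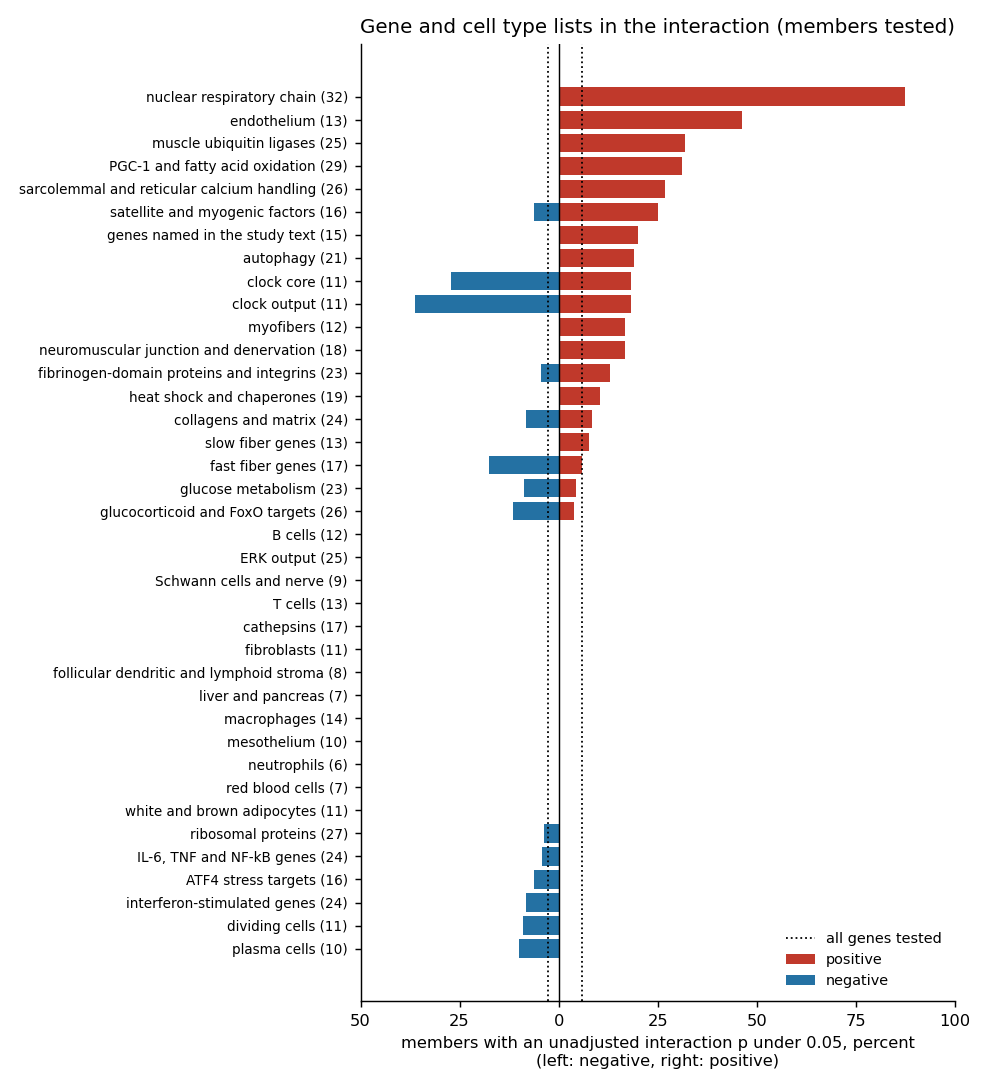
Percent of the tested members (their number in parentheses) of 38 gene and cell type lists with a positive (right) or negative (left) interaction at an unadjusted p under 0.05, with dotted lines at the shares over all genes, 5.98% and 2.6%. The respiratory chain has the longest bar to the right and the clock output list the longest to the left, and 13 lists have no member past the threshold.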

How the data were processed

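Diaphragm muscle RNA of 17 mice in 4 groups was sequenced. According to the authors' methods, reads were trimmed, aligned to the mouse genome (build mm10 per the labels) and counted per gene in CLC Genomics Workbench, and the deposited table holds TPM, which sums to 1000000 per mouse. Groups came from the sample titles.

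Genes that reached 1 TPM in 3 or more mice were kept (13305 of 47643, of which 24693 were at 0 throughout). A linear model with 4 group means was fitted to log2(TPM + 1) with limma 3.58.1 in R 4.3.3 (empirical Bayes with an expression trend, 13 residual degrees of freedom, two-sided, Benjamini-Hochberg adjustment over all 13305 genes). The authors' rank tests have no interaction term, so this model took their place. Single values per mouse were tested by exact permutation of rFibcd1 and mock labels within tumor status. The fit was tested on simulated data.

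Of the low values, 82.4 to 85.4% were whole multiples of 1 read within 0.02 reads, which gave a depth of 23.9 to 26.7 reads per TPM and kb. No count model was run on these reads. Coordinates, overlaps and lengths came from GENCODE M21 (GRCm38), which held 45084 of the symbols (94.6%), and promoters from RefSeq (GRCm38.p6).

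Genes, lists and tests were chosen with earlier results of these data known. Named were the 12 genes of each sign with the smallest interaction p, passing over predicted genes, immunoglobulin segments and pseudogenes, and up to 3 genes of each list with the smallest p. Some genes that the rule names are not reported here. Other genes of the lists were named after their values were seen. Alternatives were the pseudocount (0.1 TPM), the filter (none, or 5 TPM), 3 scalings, the variance model, sample weights, a B cell covariate, a replicate block and leaving out each mouse.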

Additional observations from a re-analysis of the deposited data

Results flagged for a closer look

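Within a group of 4 or 5 mice, 1 mouse stood apart from the rest by Dixon's ratio (95% critical value) in 22 of 321 combinations of gene and group checked. Chance gives about 1 in 20, or 16.05 of them. All values below are log2(TPM + 1) of the mouse that stood apart.

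In LLC + rFibcd1, replicate 2 stood apart in the clock outputs Dbp (5.58) and Tef (5.05), in both of which it was the lowest of its group, in Leo1 (3.86), in the cytochrome oxidase gene Cox8b (11.6) and in the calcium pump gene Atp2a2 (9.003). Replicate 3 stood apart in Ephx1 (5.45), Itgb5 (5.80) and Ulk1 (4.66), and replicate 1 in Itga7 (6.27) and Nr1d2 (5.30).

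In Control, replicate 3 stood apart in Per3 (3.24), Asb14 (5.67) and Col4a1 (6.28), replicate 5 in Bhlhe41 (3.13) and Ifit3 (3.04), replicate 2 in Atp2a1 (12.5) and replicate 4 in Timp1 (1.44). In Control + rFibcd1, replicate 1 stood apart in Ldhb (10.3) and Ndufv1 (8.59), replicate 2 in Mrln (3.43), replicate 3 in Mthfd1l (0.928) and replicate 4 in Ackr4 (1.97). The LLC group, with 3 mice, was not checked in this way.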

How the results depend on the processing

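The count of genes at an adjusted p under 0.05 was 0 on the deposited values (limma, 1142 at an unadjusted p under 0.05) and stayed 0 with a pseudocount of 0.1 TPM, a filter at 5 TPM, TPM rescaled without mitochondrially encoded genes, no expression trend and robust empirical Bayes. It was 1 without a filter (Trav6-2), 1 under median-ratio scaling and 1 after quantile normalization (Cbfa2t3 in both), 2 with the B cell covariate and 12 with sample weights. Leaving out 1 mouse gave 0 to 11. The count at an unadjusted p under 0.05 was 1792 without a filter. The count of negative genes, 346, was 841 without a filter, 185 at 5 TPM, 763 with sample weights, 222 with the B cell covariate and 172 to 838 without 1 mouse. With the replicate block there were 0 genes at an adjusted p under 0.05 and 180 negative genes. Deviations were correlated above 0.1 in 4 of 22 pairs with the same number and in 30 of 85 pairs with different numbers. The numbers were therefore not treated as pairing the mice, and a shared batch was not tested. Of the 105 genes whose interaction was recomputed, 3 changed sign, all with the B cell covariate, which is built from them, namely Cd79a (0.41), Cd79b (0.31) and Ms4a1 (0.11). With 3 mice, the LLC mean had the largest error, and the median SE was 0.11 for the effect of rFibcd1 with the tumor and 0.09 without it. Genes near 1 TPM rest on few reads.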
